A study of Mus musculus with 8 samples.

Results

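Among 8 mouse testis RNA samples measured at postnatal day 23, wildtype replicate 7 and mutant replicate 8 carried far more spermatid transcript than the others, and 132 probe sets were lower on both of these arrays than on any of the other 6. These lowered transcripts are described here. They were chosen on the measured values themselves. A probe set was taken if the higher of its 2 levels on the pair lay at least 0.4 on the log2 scale below the lowest of the other 6 levels, and if the mean of those 6 was at least 6. Of 45037 probe sets other than controls, 25690 reached that mean and 132 (0.514%) met both conditions. The same rule turned upwards gave 591 probe sets (2.3%). The difference between the pair and the other 6 arrays is therefore a description with no test, and a member is called lowered only in that sense.

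The arrays (Affymetrix Mouse430_2, 1 per sample) held whole testis of 5 samples with the wildtype label, numbered 1, 2, 4, 6 and 7, and of 3 Ctcfl mutants, numbered 3, 5 and 8. The mutant allele, Ctcfl del, lacks exons 1 to 8, and the study's text gives the mutant mice as homozygous and the controls as heterozygous littermates carrying 1 such allele, where the labels say wildtype. The pair was not set apart by genotype, since it holds 1 sample of each. Nothing in the labels ties the replicates to separate litters or hybridisation days, so p-values cover only the spread between these samples, and Ctcfl itself was not analysed here.

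In the juvenile mouse the first wave of spermatogenesis moves through the tubules together, and round spermatids join the spermatogonia, spermatocytes and Sertoli cells already there. A whole-testis RNA sample is thus a mixture whose proportions shift quickly with age. In such a sample fewer cells of a type and less RNA per cell cannot be told apart.

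The pair had been named spermatid-rich from these same expression values, so its spermatid markers describe that name and do not test it. The mean level of the spermatid list (21 genes measured) was 9.56 on wildtype 7 and 9.21 on mutant 8, against 7.74 to 8.31 on the other arrays, and 25 of its 28 probe sets with a mean of at least 6 were above all 6 on both. Prm1, which encodes a protamine that packs sperm DNA, stood at 12.01 and 10.84, against 6.68 to 8.67. Fat cell markers moved with the pair too. Their mean level was 6.75 and 6.65 against 5.32 to 5.83, and 7 of 8 probe sets with a mean of at least 6 lay above all 6 arrays on both. The Gapdh 3′ minus 5′ control, a sign of RNA integrity, was 0.31 and 0.33 on the pair and 0.04 to 0.22 elsewhere on the log2 scale. The same control for Actb was 1.13 on wildtype 7 but 1.026 on mutant 8, inside the 0.75 to 1.034 of the others. The part of any of these in the lowered transcripts was not tested.

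The 132 probe sets fell to 82 genes with a current RefSeq symbol (94 probe sets), 8 probe sets annotated to several genes, 8 with an Entrez ID outside the gene table and 22 with no Entrez ID. For 10 genes more than 1 probe set was lowered: 4 of Tgfbi, and others of Pi4kb, Ing3, Abcb10, Iah1, Ptdss2, Ptprf, Csrp1, Col1a2 and Hmgb1. The median member level was 7.71 to 7.82 on wildtype 1, 2, 4 and 6, 7.89 and 8.05 on mutant 3 and 5, and 6.92 and 6.84 on wildtype 7 and mutant 8. The median level of all probe sets was 6.40 to 6.45 on every array. Relative to the mean of the 6, the members' median difference was -0.82 on wildtype 7, with a range from -3.31 to -0.46, and -0.88 on mutant 8, with a range from -3.31 to -0.51. All probe sets had medians of -0.04 and -0.01.

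The members lay along a scale between 2 forms of pattern. At 1 end the 6 arrays lay close together and the pair lay well below. The gap was at least 3 times the range of the 6 arrays for 20 probe sets and wider than that range for 109. In the second the gap was small beside the spread, and 23 probe sets had a range wider than the gap. The median gap was 0.55 and the median range 0.34, while the median range of all probe sets with a mean of at least 6 was 0.29. In all, 16 members had a gap of at least 1 and 79 a gap under 0.6.

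**Figure D1:**
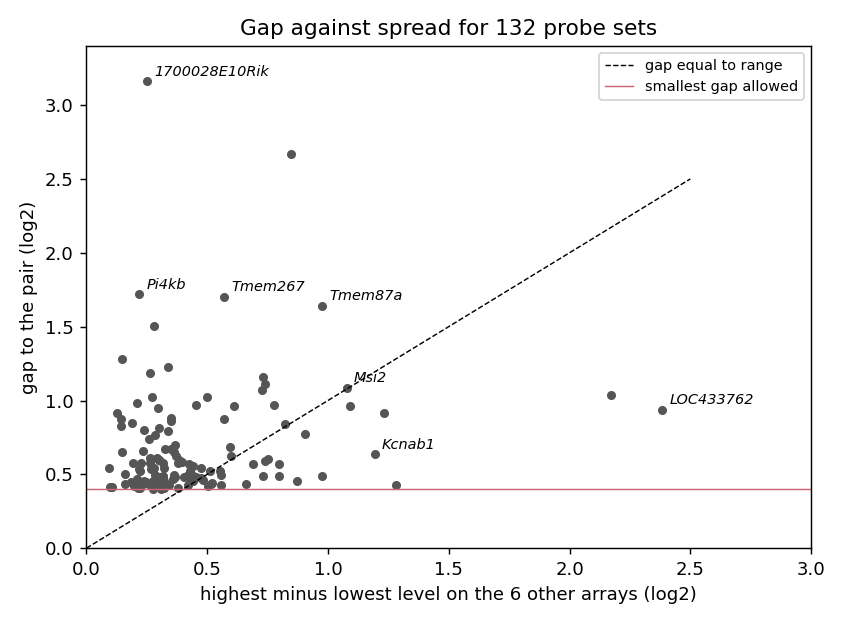
Gap between the pair and the 6 other arrays (vertical, log2) against the range of those 6 arrays (horizontal, log2), 1 point per lowered probe set. Points above the dashed line (109 of 132) have a gap wider than the range, and 1700028E10Rik stands highest at 3.16.

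The widest gap belonged to 1700028E10Rik, a clone-named transcript singled out after its values were seen. It stood at 7.82, 7.71, 7.70 and 7.72 on wildtype 1, 2, 4 and 6, at 7.83 and 7.58 on mutant 3 and 5, and at 4.42 on both wildtype 7 and mutant 8. The 6 arrays spanned 0.25 and the pair was 9.93-fold lower. The level on the pair lay well under the median of all probe sets, 6.40 to 6.45. The other probe set of this gene, with a mean of 5.74 on the 6 arrays, differed by only -0.17 and -0.31. An unnamed probe set followed with a gap of 2.67.

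The 14 genes named for their wide gaps are given here by what their products are known to do. Proteins of the Golgi and other membranes come first. Pi4kb, a phosphatidylinositol kinase of the Golgi, had levels of 7.81, 7.77, 7.67 and 7.72 on the 4 wildtype arrays, 7.89 and 7.87 on mutant 3 and 5, 5.89 on wildtype 7 and 5.95 on mutant 8. A second probe set of Pi4kb was lowered less, with 7.28 to 7.48 on the 6 arrays and 6.85 and 6.86 on the pair. Tmem87a, a membrane protein of the Golgi, spread from 8.23 to 9.21 on the 6 arrays and read 6.48 and 6.59 on the pair. Mboat2, an acyltransferase that remodels phospholipids, was at 9.66 to 9.94 and then at 8.62 and 8.64. Mgat4d, a testis relative of the Golgi N-acetylglucosaminyltransferases, was at 9.99 to 10.60 and then at 9.03 and 8.63. Abcb10, a transporter of the inner mitochondrial membrane, was lowered by both of its probe sets, with gaps of 0.95 and 0.77. Iah1, an esterase, was at 9.03 to 9.17 on the 6 arrays and at 8.16 and 7.91 on the pair.

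Ing3 and Msi2 encode nuclear and RNA-binding proteins. Ing3, a subunit of a histone acetyltransferase complex, was at 6.33 to 6.61 on the 6 arrays and at 4.82 and 4.76 on the pair. Msi2, a Musashi RNA-binding protein, had a single high array among the 6, mutant 5 at 8.16, with the others at 7.08 to 7.50, and the pair lay 1.39 and 1.54 below the mean of the 6. The brightest probe set of Msi2, with a mean of 10.3, differed by only -0.01 and -0.22. Of its other probe sets outside the rule, the lowest differed by -0.47 and -0.63.

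The remaining 6 genes act mostly in signalling or at the cell surface. Ptprv, a receptor-type tyrosine phosphatase, was at 9.68 to 9.75 on the 4 wildtype arrays, at 9.02 on mutant 3, at 9.71 on mutant 5 and at 7.95 and 7.69 on the pair. Map4k1, a kinase best known in blood cells, was at 8.23 to 9.01 and then at 6.74 and 7.26. Itgb1bp1, which binds the tail of an integrin, was at 11.25 to 11.39 and then at 10.42 and 10.29. Ddit4, a stress-induced inhibitor of mTOR signalling, was at 9.26 to 9.40 on the 4 wildtype arrays, at 9.76 and 9.66 on mutant 3 and 5, and at 8.24 and 8.18 on the pair. Colec11, a secreted lectin, was at 5.70 to 6.43 and then at 4.55 and 4.44. Tmem267, a membrane protein of little known function, had 10.40 to 10.97 on the 6 arrays, 8.69 on wildtype 7 and 7.67 on mutant 8, a 6.02-fold mean difference.

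**Figure D2:**
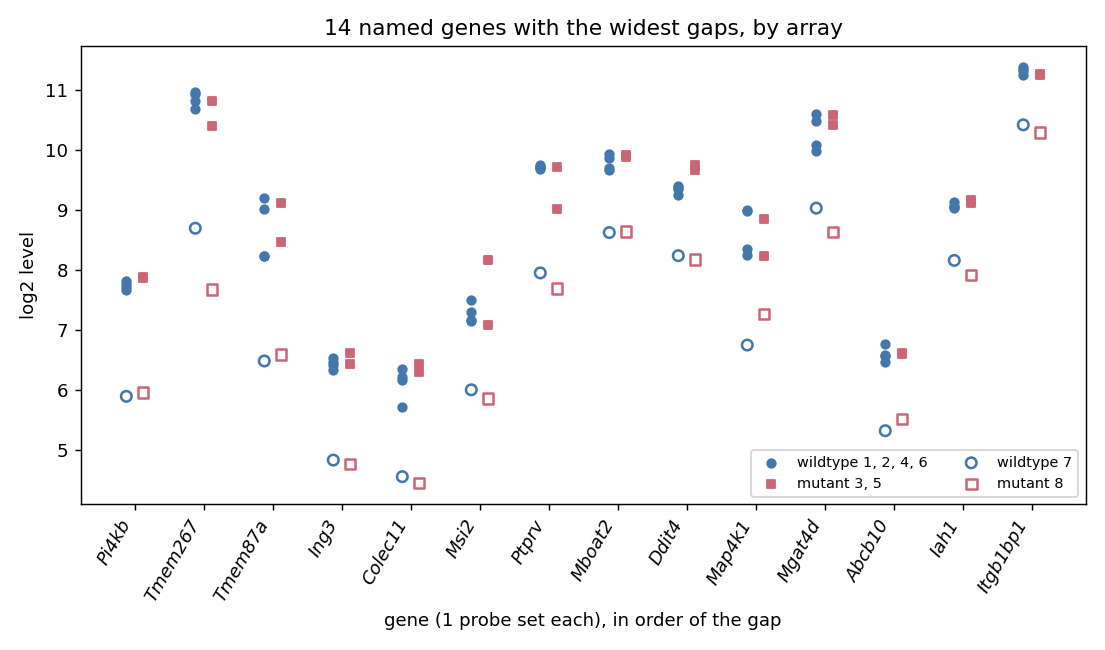
Log2 levels of 14 genes on each of the 8 arrays, 1 probe set per gene, ordered by the gap. Filled points are the 6 other arrays and open points are wildtype 7 and mutant 8. For each gene both open points lie below all filled ones, as the rule required, and Tmem267 shows the largest distance between the open points.

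Some members had narrow gaps but still tighter spreads, and those named next were picked after their values were seen. Dhx9, an RNA helicase, had the narrowest range of all members, 0.0945 around a mean of 8.45 on the 6 arrays, and stood at 7.86 and 7.68 on the pair. A brighter probe set of Dhx9, with a mean of 11.0, differed by 0.08 and -0.28. Prps1l1, a testis-specific enzyme of nucleotide synthesis, was at 12.33 to 12.43 and then at 11.91 and 11.75. Nme2, a nucleoside diphosphate kinase, was at 11.89 to 11.99 and then at 11.47 and 11.21. Hnrnpul2, an RNA-binding protein of the nucleus, was at 8.29 to 8.44 and then at 7.56 and 7.64. A brighter probe set of Hnrnpul2, with a mean of 9.65, differed by -0.09 and -0.17. For the lowered probe sets of all 4 genes the gap was at least 3 times the range of the 6 arrays, although it was between 0.41 and 0.65. At the other end stood LOC433762, which spread from 7.41 on wildtype 2 to 9.80 on mutant 3, a range of 2.38 against a gap of 0.94.

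The pair did not always agree in size. Mutant 8 was the lower of the pair for 79 members and wildtype 7 for 53. That is 59.8% lower on mutant 8, where 45.1% of all probe sets were. The pair lay within 0.1 of each other for 55 members (41.7%), and for 43.7% of all probe sets with a mean of at least 6. It differed by at least 0.5 for 12 members and by at least 1 for 3. Apart from Tmem267, these 3 were Kcnab1, a potassium channel subunit, at 6.58 on wildtype 7 and 7.68 on mutant 8, and LOC433762 at 6.48 and 5.46, both named after their values were seen.

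At the edges of the rule stood genes that differ little from their neighbours outside it. Just inside the gap were Clasp2, which binds growing microtubule ends, at 0.401 and a second probe set of Ing3 at 0.403. Just outside were an unnamed probe set at 0.398 and Cenpb, a centromere protein, at 0.397. Just inside the mean level were an unnamed probe set at 6.01 and Atf7ip, a chromatin regulator, at 6.03. Just outside were Nktr, a cyclophilin-related protein, at 5.89 and an unnamed probe set at 5.87.

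Lists of cell type markers and pathway genes held few members. Of the 12 marker lists and 15 pathway lists, 4 lists held a member, with 4 genes in all. Etv5, a transcription factor needed for renewal of spermatogonial stem cells, was 1 of 18 spermatogonial genes measured. It read 6.27 to 6.46 on the 4 wildtype arrays, 6.51 and 6.76 on mutant 3 and 5, and 5.81 and 5.61 on the pair. The brightest probe set of Etv5, with a mean of 8.15, differed by -0.0434 and -0.445 and did not lie below all 6 on both. Another, with a mean of 7.02, differed by -0.437 and -0.484 and did. Col1a2, a chain of type I collagen, was 1 of 30 extracellular matrix genes, and was lowered by 2 probe sets. The brighter probe set of Col1a2 was at 12.55 to 12.71 and then at 11.94 and 12.05, and the dimmer was at 11.26 to 11.54 and then at 10.81 and 10.68. Jun, part of the AP-1 transcription factor, was 1 of 22 immediate early genes, with 7.40 to 7.78 against 6.99 and 6.97. Rps6, a protein of the small ribosomal subunit, was 1 of 25 ribosomal protein genes, with 7.32 to 7.59 against 6.71 and 5.77. That probe set is dim beside the 10.97 to 11.06 that the ribosomal list without it averaged over the 6 arrays.

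Of these 4 lists, 3 had a large share of probe sets that lay below the other arrays on the pair by any amount, those that met the rule included. Of 55 extracellular matrix probe sets with a mean of at least 6, 32 (58.2%) lay below all 6 arrays on both arrays of the pair, with medians of -0.22 on wildtype 7 and -0.36 on mutant 8. The count was 18 of 36 for ribosomal proteins and 11 of 27 (40.7%) for spermatogonia. Only 3 of 22 (13.6%) immediate early probe sets did so. Over all such probe sets the share was 13.7%. Smooth muscle and peritubular markers, without a member, had 6 of 14 (42.9%). By contrast the Sertoli list had 2 of 28, the Leydig list 0 of 16, macrophages 1 of 15, and pachytene spermatocytes 1 of 23. These shares rest on the contrast that chose the members and are descriptions only.

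Of the members outside the lists, 3 more were picked after their values were seen. Tgfbi, a secreted matrix protein induced by TGF-β, was lowered by 4 probe sets with gaps of 0.41 to 0.50. Mfap5, a microfibril protein, was at 8.17 to 8.46 and then at 7.75 and 7.68. Nr2f2, a nuclear receptor of interstitial cells, was at 6.32 to 6.74 and then at 5.89 and 5.83, while its brightest probe set differed by -0.12 and -0.10. In the files' own annotation, 11 of 132 member probe sets (8.33%) were of extracellular proteins, against 3.80% of probe sets with a mean of at least 6. For nuclear proteins there were 10 (7.58%), against 3851 of 25690. The share of transmembrane proteins was 13.6% against 13.5%. These are shares of probe sets, in which a gene with several lowered probe sets can count more than once, and genes were not counted.

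The other probe sets of the same genes followed the members only in part. For 41 of the 82 genes the array carried at least 1 further probe set with a mean of at least 6, 78 in all. Of these, 25 (32.1%) lay below all 6 arrays on both arrays of the pair and 48 (61.5%) below their mean on both, against 13.7% and 42.2% of all probe sets. Their median difference was -0.14, with a range from -1.49 to 0.47. The lowest was a second probe set of Kcnab1, at -1.94 on wildtype 7 and -1.05 on mutant 8. Many of the widest gaps were not shared. The other probe set of Tmem267 was 0.11 and 0.21 above the mean of the 6 on the pair, where the lowered one was -2.08 and -3.10. A brighter probe set of Ing3 differed by -0.17 and -0.06. Probe sets of a gene can read different transcript ends, so a low level applies to the transcripts that the lowered probe sets of a gene read.

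**Figure D3:**
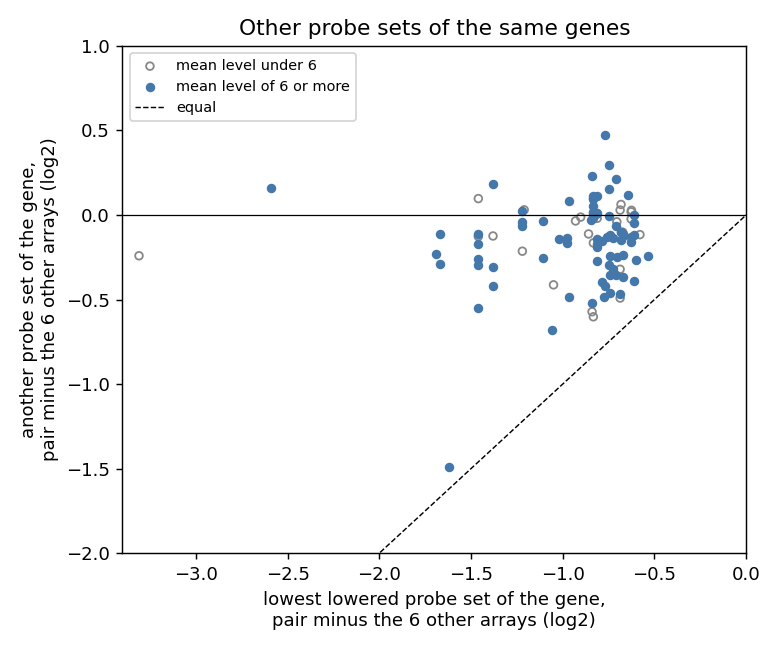
Each point is another probe set of a gene with a lowered probe set. The horizontal axis gives the lowest lowered probe set of the gene and the vertical axis the other one, both as the mean of the pair minus the mean of the 6 arrays (log2). All lie above the dashed line of equality, and most lie between it and 0 or close to 0.

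The kinds of probe set were spread much as on the whole array. Of the members, 97 (73.5%) carried the plain suffix, 23 (17.4%) were those shared by transcripts of 1 gene, and 12 were of the 2 kinds open to cross-hybridisation. Among all probe sets with a mean of at least 6, 73.9% and 13.6% were of the first 2 kinds.

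The members were unevenly placed along the genome. Genes were put in order by their RefSeq positions, used for order only, and 12787 genes had a probe set with a mean of at least 6. Chromosome 12 held 10 of the 82 genes (12.2%) against 3.56% of measured genes, and chromosome 1 held 10 (12.2%) against 5.64%. Chromosomes 15 and X held 0, with 4.14% and 3.25% of measured genes. Of the genes raised on the pair by the mirrored rule, chromosome 12 held 4.85%.

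**Figure D4:**
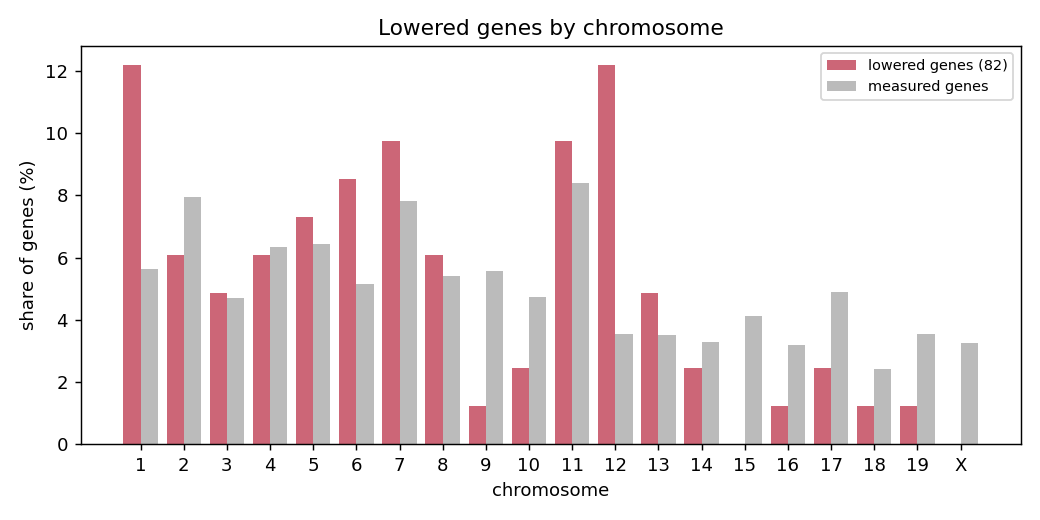
Share of the 82 lowered genes (red bars) and of all 12787 measured genes (grey bars) on each chromosome, in percent. Chromosomes 1 and 12 hold 12.2% of the lowered genes each, and chromosomes 15 and X hold none. The Y chromosome, with 6 measured genes and no lowered one, is not drawn.

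A lowered gene often had another beside it. For 32 of the 82 genes (39.0%) another lowered gene lay within 10 places in the order of measured genes, and for 9.60% of all other measured genes a lowered gene lay that near. The 32 genes formed 13 runs. A run on chromosome 12 held 8 of them and the other 12 held 2 each. Of these, 5 runs were of genes with 0 or 1 measured gene between them: Mysm1, a histone deubiquitinase, with Jun; Gatad2a, of the NuRD complex, with Mau2, a cohesin loader; Nme2 with Spag9, a scaffold of MAP kinases; Map4k1 with Fam98c, with Ryr1 between them; and Tmem267 with the clone-named gene 4833420G17Rik, also with 1 gene between. The last of these stood at 8.06 to 8.20 on the 6 arrays and at 6.78 and 6.77 on the pair.

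The run on chromosome 12 reached from Nol10, a nucleolar protein, to Acp1, a small tyrosine phosphatase, and took in Gm5953, Itgb1bp1, Iah1, Mboat2, 4933409F18Rik and Colec11. These 8 genes lay among 32 measured genes, so 24 genes of the stretch were not lowered by the rule. Of the 49 other probe sets there, 15 were below all 6 arrays on both arrays of the pair and 6 were above them on both. Over all 25690 probe sets with a mean of at least 6, 3514 (13.7%) were below and 2786 above. The median difference of the 49 was -0.12, from -0.68 to 1.19. The highest value was that of Allc, an allantoicase, whose probe sets were 1.19 and 0.99 higher on the pair. Gm5953 and Itgb1bp1 are neighbours in the order, while Cpsf3 lies between Itgb1bp1 and Iah1, and its probe sets differed by 0.06 and -0.04.

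**Figure D5:**
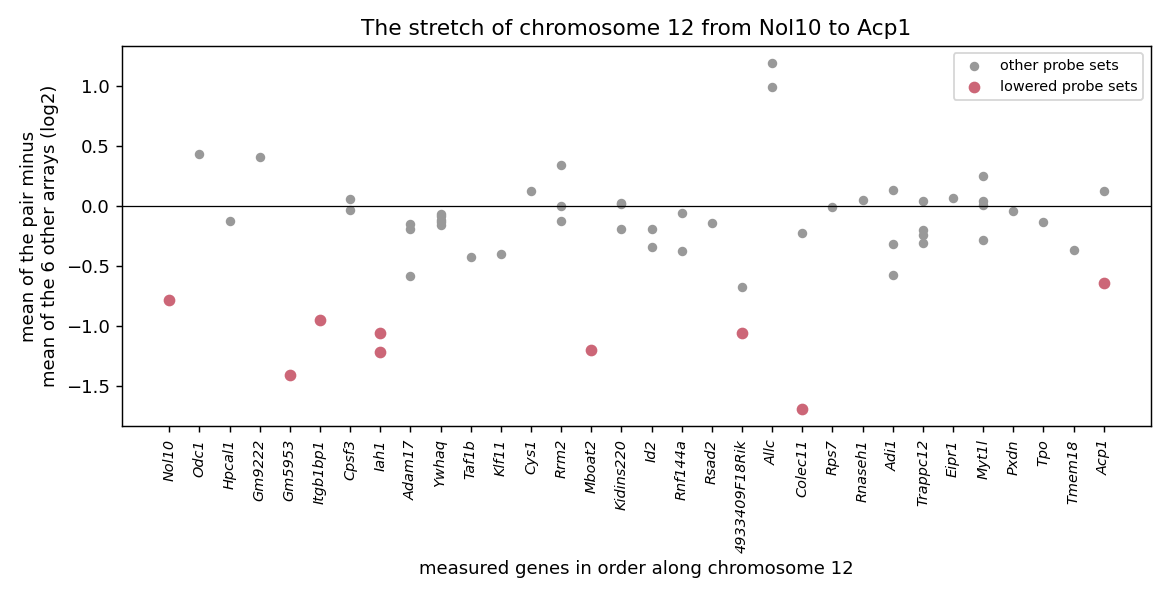
Mean of the pair minus mean of the 6 other arrays (log2) for 58 probe sets of 32 measured genes, in their order along chromosome 12 from Nol10 to Acp1. The 9 lowered probe sets (red) lie between -1.70 and -0.65, and the other probe sets (grey) are centred on -0.12.

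Some lowered genes start back to back with a gene on the opposite strand. RefSeq promoter windows, 250 bases before to 50 after the start, were at hand for 69 of the 82 genes (build GRCm38.p6). For 16 of these a gene on the other strand had a window that overlapped, each pair running away from the other. In 7 pairs the partner was measured with a mean of at least 6. None of the 7 partners was a member, and 1 of them, a clone-named transcript beside Erc1, lay below all 6 arrays on both arrays of the pair. Of all measured genes only 0.641% were members, and 13.7% of all probe sets with a mean of at least 6 lay below all 6 arrays. Counts in 7 partners therefore cannot set them apart from other genes. The 7 partners' median differences were 0.05 on wildtype 7 and -0.02 on mutant 8. The windows of 3 lowered genes are printed because each overlaps the window of a gene that was not lowered, with the bases shared with the partner's window in capitals, 5′ to 3′ on the lowered gene's strand. Itgb1bp1 (chr12:21286235-21286534, minus strand) shares 112 bases with Cpsf3, Map4k1 (chr7:28981800-28982099, plus strand) 261 bases with Eif3k, and Mau2 (chr8:70042685-70042984, minus strand) 152 bases with Sugp1.
Itgb1bp1: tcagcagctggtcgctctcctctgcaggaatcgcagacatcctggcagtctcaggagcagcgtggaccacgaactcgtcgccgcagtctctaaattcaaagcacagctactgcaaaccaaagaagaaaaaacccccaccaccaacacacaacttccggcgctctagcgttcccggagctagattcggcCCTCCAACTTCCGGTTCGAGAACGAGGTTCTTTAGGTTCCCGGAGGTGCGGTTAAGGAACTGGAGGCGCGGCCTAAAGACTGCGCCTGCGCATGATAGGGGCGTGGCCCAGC
Map4k1: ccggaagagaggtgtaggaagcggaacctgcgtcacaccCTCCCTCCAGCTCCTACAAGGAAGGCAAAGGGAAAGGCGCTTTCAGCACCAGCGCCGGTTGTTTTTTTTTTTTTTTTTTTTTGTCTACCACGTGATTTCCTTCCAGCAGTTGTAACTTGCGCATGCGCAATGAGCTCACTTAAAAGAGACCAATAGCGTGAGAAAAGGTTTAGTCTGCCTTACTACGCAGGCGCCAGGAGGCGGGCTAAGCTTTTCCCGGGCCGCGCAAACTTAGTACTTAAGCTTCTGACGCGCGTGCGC
Mau2: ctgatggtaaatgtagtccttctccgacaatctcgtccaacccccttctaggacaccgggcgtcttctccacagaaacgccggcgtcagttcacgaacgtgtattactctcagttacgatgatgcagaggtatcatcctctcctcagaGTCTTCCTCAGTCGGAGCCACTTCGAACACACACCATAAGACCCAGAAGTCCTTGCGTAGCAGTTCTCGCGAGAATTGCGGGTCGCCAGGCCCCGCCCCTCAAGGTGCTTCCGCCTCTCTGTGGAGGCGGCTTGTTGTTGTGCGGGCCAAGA

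The 3 partners read as follows. Cpsf3, the endonuclease that cleaves pre-mRNA before polyadenylation, was at 10.23 to 10.44 on the 6 arrays and at 10.51 and 10.35 on the pair, inside or above the others, where Itgb1bp1 was 0.89 and 1.02 below their mean. Eif3k, a subunit of a translation initiation factor, was at 11.79 to 11.89, at 11.81 on wildtype 7 and at 11.50 on mutant 8. Sugp1, a splicing factor, was at 10.41 to 10.55 and then at 10.41 and 10.50, where the lowered probe set of Mau2 was at 8.22 to 8.59 and then at 7.63 and 7.74. The brightest probe set of Mau2 differed by only -0.09 and -0.04 from the mean of the 6. Its remaining probe sets differed by -0.44 and -0.26 and by 0.06 and 0.37. On chromosome 12 Sh3yl1, the partner of Acp1, rose from 7.19 to 7.47 up to 8.75 and 8.21. The lowered probe set of Acp1 differed by -0.78 and -0.51 from the mean of the 6, while its brighter probe set differed by 0.13 and 0.12.

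In all, 6 short motifs were counted in the promoter windows on both strands. CCAAT was in 39.1% of the 69 windows and in 38.1% of those of 10244 measured genes. The GC box GGGCGG was in 65.2% and 61.9%. The cAMP response element TGACGTCA was in 4.35% and 3.18%, the TATA box TATAAA in 5.80% and 7.30%, the E-box CACGTG in 4.35% and 9.96%, and the AP-1 site TGAGTCA in 2.9% and 3.52%. Over all 27025 windows the shares were 37.9%, 35.9%, 1.88%, 14.2%, 7.24% and 5.17% in the same order. The median number of CG pairs per window was 20 in lowered and in measured genes. No motif contains another. A match is only a run of letters.

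Whether the lowered transcripts also differed between the genotypes was asked with limma over all 45101 probe sets. By the rule every member was low on 1 wildtype and 1 mutant array, which widens the spread within both groups, so for the members the fit without the pair as a block is a description and its p-values say nothing of genotype. None of the 132 members passed an adjusted p of 0.05, where 0% of all probe sets did, and no member had an adjusted p below 1.0. Without adjustment 0 members had a limma p under 0.05, where 3.47% of all probe sets (1564) did. The members' median difference, mutant minus wildtype, was -0.08, and 33 of 132 (25.0%) were higher in mutant, where 51.5% of all probe sets were. Without mutant 8 the median was 0.25. That fit sets 1 low array of 3 against 1 low array of 5, and the members' median standard error was 0.26 against 0.09 for all probe sets.

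With the pair as a block of its own, which no label names, 0 members passed an adjusted p of 0.05, where 0.00222% of all probe sets (1) did, and the smallest adjusted p of a member was 0.803. At an unadjusted p under 0.05 there were 12 members (9.09%), where 5.86% of all probe sets were found. Of the 12, 8 were higher in mutant (6.06%, against 3.03% of all) and 4 lower (3.03%, against 2.83%). The members' median difference was 0.04 against 0.01 for all probe sets, and 88 members (66.7%) were higher in mutant, where 52.5% of all were.

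Of the members higher in mutant testis in the block fit, Nol10 had the smallest p. It stood at 6.22, 6.09, 6.25 and 6.16 on wildtype 1, 2, 4 and 6 and at 6.42 and 6.52 on mutant 3 and 5, with 5.41 on wildtype 7 and 5.57 on mutant 8. The mutant level was thus higher both among the 6, by 0.29, and within the pair, by 0.15. The block difference of Nol10 was 0.25 (SE 0.07, limma adjusted p = 0.803, n = 5 and 3). Csrp1, a LIM protein of the actin cytoskeleton, was at 8.12, 7.83, 7.82 and 8.27 in wildtype and 8.35 and 8.62 in mutant, with 7.01 and 7.25 on the pair, a block difference of 0.41 (SE 0.12; limma adjusted p = 0.803). Arpc1b, a subunit of the actin-nucleating Arp complex, was at 9.01 to 9.37 in wildtype and at 9.57 and 9.56 in mutant, with 8.40 and 8.52 on the pair. Its block difference was 0.30 (SE 0.09; limma adjusted p = 0.810). Ddit4 followed with 0.25 (SE 0.09), and the second probe set of Ing3 with 0.17. For Ddit4 wildtype 7 and mutant 8 were at 8.24 and 8.18, so its difference came from the other 6 arrays.

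Of the members lower in mutant testis, Tmem267 had the smallest p, with a block difference of -0.46 (SE 0.15; limma adjusted p = 0.827). Among the 6 arrays its mutant values, 10.82 and 10.40, overlapped the wildtype range of 10.69 to 10.97. Spag9 was at 6.96 to 7.23 in wildtype and at 6.98 and 6.89 in mutant, with 6.46 and 6.16 on the pair, with overlap among the 6 and a difference of -0.21 (SE 0.08; limma adjusted p = 0.849). Ptprv gave -0.32 (SE 0.13), Tgfbi -0.13 (SE 0.07) by 1 of its 4 lowered probe sets and Rps6 -0.27 (SE 0.15), and for each of these the wildtype and mutant values overlapped among the 6 arrays. Tgfbi and Rps6 had unadjusted limma p of 0.093 and 0.107 in the block fit, so they were not among the 4 members counted as lower. For Rps6 the difference over the 6 arrays was -0.01, with 6.71 on wildtype 7 and 5.77 on mutant 8. The other lowered probe sets of Tgfbi gave -0.04, 0.03 and 0.004. No gene in either direction passed the adjustment.

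Among the 6 arrays outside the pair, mutant 3 and 5 tended to sit at the top. For 26 of 132 members (19.7%) both lay above all 4 wildtype arrays, where 7.9% of all probe sets did, and for 2 (1.52%) both lay below, where 6.97% did. Here too all probe sets include those below the mean level of 6 that members had to reach. The median difference over these arrays was 0.09 for the members and -0.002 for all probe sets, and 97 members (73.5%) were higher in mutant, where 49.0% of all were. Genes of this kind were Ddit4, Nol10, Arpc1b, Csrp1 and Etv5. The spermatid list averaged 7.74 and 7.92 on mutant 3 and 5 and 7.87 to 8.31 on wildtype 1, 2, 4 and 6, and fat markers 5.38 and 5.32 against 5.53 to 5.83. Their part in the members' order among these arrays was not tested.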

How the data were processed

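RNA of 8 testes was measured on Affymetrix Mouse430_2 arrays. Per the study's methods the authors quantile-normalised the arrays and corrected background by RMA, and the deposited values were log2 levels, 1 for each probe set on each array, and were used as deposited. Sample titles gave the group and the replicate number. Columns of the authors' own group means, fold changes and p-values, and their 2 limma tables, were not used. Which genome build the annotation follows is not given in the sources used here. Names came from Entrez IDs looked up in a RefSeq table of GRCm38.p6, where 33571 of 45101 probe sets had exactly 1 gene, 17727 genes in all.

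Genotypes were compared by two-sided limma tests (version 3.58.1 under R 4.3.3; lmFit, then eBayes), adjusted after Benjamini and Hochberg over all 45101 probe sets, also with the array pair as a block, and the fits were tested on simulated data. The pair was defined from expression. The 64 control probe sets could not be members. The rest was done in Python 3.11.15 (pandas 2.3.3, numpy 2.4.6), with plots by matplotlib 3.10.9. The members, the lists and the tests were chosen with earlier results of these data known. Named were the 15 genes with the widest gap, of which 1 is not reported here, members of the lists, up to 5 members per direction with the smallest p in the block fit, and probe sets beside a threshold. Genes with clone or predicted names were left out except where stated. The number of arrays limits the precision. Alternatives were other thresholds, centring, a repeated quantile normalisation, leaving out arrays, only brighter probe sets, and an intensity trend with a robust prior.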

Additional observations from a re-analysis of the deposited data

Results flagged for a closer look

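The pair had already been set apart from these same expression values as rich in spermatid transcript. A flag of the spermatid list on wildtype 7 was thus known in advance, and the count of flags is a description only. Among the 5 wildtype arrays, replicate 7 stood apart from the others by Dixon's test in 3 of 30 measures that did not include the lowered probe sets, where chance alone gives about 1.5. These were the mean level of the spermatid list at 9.56, with the nearest wildtype array at 8.31 and mutant 8 at 9.21, that of the fat cell list at 6.75, with the nearest at 5.83 and mutant 8 at 6.65, and that of the pachytene spermatocyte list at 10.20, with the nearest at 10.05 and mutant 8 at 10.14.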

How the results depend on the processing

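The number of lowered probe sets, 132, moved with the thresholds, to 242 at a gap of 0.3, 53 at 0.6 and 16 at 1, and to 60 at a mean level of at least 8. Centring each array gave 110, all of them members, and repeating the quantile normalisation 136, with 125 members among them. Leaving out 1 array gave 135 to 404, the most without wildtype 7 (404) and without mutant 8 (252), where a single array sets the gap. The count of members past the adjusted threshold by genotype was 0 in every alternative. The unadjusted count by genotype was 0 members, where 1564 of all 45101 probe sets were found. It rose to 12 (2644 of all) with the pair as a block and to 18 (2956 of all) with the pair left out. With 1 array left out it lay between 0 and 6, where 1220 to 2649 of all were found. It was 4 without wildtype 7 (1621 of all) and 6 without mutant 8 (2649 of all). In the block fit it stayed between 11 and 18 without 1 array, where 2267 to 2956 of all probe sets were found. The 18 came from leaving out wildtype 7 or mutant 8, which again rests on the other 6 arrays. The median genotype difference of the members was 0.0443 with the block and 0.0855 without the pair, and -0.26 to 0.25 without 1 array, positive only without mutant 8. Without the block the differences of 8 named members turned sign when 1 array was left out: Nol10 ranged from -0.0332 to 0.44, Csrp1 from -0.0104 to 0.67, Ddit4 from -0.20 to 0.59, Ing3 from -0.0495 to 0.31, Tmem267 from -1.39 to 0.19, Ptprv from -1.0 to 0.00809, Tgfbi from -0.36 to 0.00215 and Rps6 from -0.72 to 0.14, and the cause was not tested. No paired analysis was possible because no replicate number occurs in both groups.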
